A study of Mus musculus with 5 samples.

Results

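Pcgf6 ChIP with the Abcam antibody ab48010 was compared with input DNA in CCE cells, an established line of mouse embryonic stem cells (ESCs) grown in medium with serum and LIF. Of the 5 libraries of the series, 2 are Abcam repeats, 1 is the input and 2 were made with a Santa Cruz antibody, sc-160649. The labels name no genetic change and no treatment other than cross-linking with disuccinimidyl glutarate and paraformaldehyde. The labels list no cells without Pcgf6 and no pull-down with a control antibody, so what the antibody binds apart from Pcgf6 cannot be read from these files.

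Pcgf6 is a ring-finger subunit of a variant Polycomb repressive complex 1, PRC1.6. In this complex it sits with the E3 ligases Ring1 and Rnf2, the reader L3mbtl2, and 2 DNA-binding pairs, Mga with Max, which binds E-boxes, and E2f6 with Dp1 (gene Tfdp1), which binds E2F-type sites. PRC1.6 is best known in ESCs for holding genes of the germ line and of meiosis silent, at promoters rich in CpG dinucleotides. ChIP-seq enriches, with an antibody, the DNA that a protein sits on and sequences it, and input DNA from the same kind of chromatin gives the background.

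The deposited value is the coverage depth at each base of the mouse genome (mm9, NCBIM37), from reads that the authors had extended to 300 bp. From the steps in this depth, 2761667 and 2850508 fragments were recovered for Abcam repeats 1 and 2, and 22813494 for the input. The Abcam repeats were not independent. Of the fragment positions of repeat 1, 88.3% were found in repeat 2 at a shift of 1 or 15 bases, and the chi-square per degree of freedom over 10 kb windows was 0.159 between them, against 1.02 between repeat 1 of the 2 antibodies. Their difference was below the sampling noise, so they count as 1 library of 3157536 fragments, with each shared fragment taken once. No spread over replicates is therefore given. Ratios are Abcam over input fragments, scaled by the library totals, and their exact (Clopper-Pearson) 95% intervals cover counting error only. Depth is given for each file relative to its own genome mean.

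Across the genome, Abcam depth was distributed much like input depth. Promoters (2 kb to either side of the main TSS, 22359 protein-coding genes) took 5.95% and 5.97% of the depth in repeats 1 and 2 and 6.01% in the input, a ratio of 0.991. Gene bodies took 40.6% and 40.7% against 42.4% in the input, a ratio of 0.958. Distal bins, which lay over 10 kb from any protein-coding TSS and outside genes, took 41.7% and 41.5% against 39.04%, a ratio of 1.06. Over all promoters the depth within 500 bp of the TSS was 2.54 and 2.55 in the repeats and 2.54 in the input. The central depth divided by that 1.5 to 2 kb away was 1.78 in both repeats and 1.72 in the input, so the Abcam profile was 1.03 times as concentrated as the input profile. At CpG-rich promoters this value was 1.06 and at CpG-poor promoters 0.972.

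Signal above input was found at a small set of promoters. A promoter was called where a one-sided exact binomial test had a Benjamini-Hochberg adjusted p under 0.05 over all promoters and the ratio was at least 2 (higher) or at most 0.5 (lower). This test compares the fragments of 2 libraries, not conditions. Of the 22359 promoters, 239 were called higher (1.07%). None was called lower (0%, against 1266 at an unadjusted p under 0.05). The median promoter held 69 input fragments, for which 9.78 Abcam fragments were expected, and 0 Abcam fragments would have given a p of 0.000107. A loss against input was thus hardly detectable at this depth. The median ratio of all promoters was 0.941.

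The 239 called promoters lay in 213 separate regions, since neighbouring genes can share a window. Of them, 36 had an input depth of 3 times the genome mean or more, and 8 had fewer than 20 input fragments. The other 195 are described below as the well-measured called promoters, out of 16706 promoters that meet the same limits (1.17%). These 195 lay in 181 regions. Their ratio ran from 2.20 to 10.4 with a median of 3.10. It was under 3 at 87, between 3 and 5 at 97, and 5 or more at 11. They held 12 to 60 Abcam fragments, with a median of 29. Their depth had a median of 5.79 in repeat 1, 5.97 in repeat 2 and 1.94 in the input. In each of the 195, both repeats lay above the input, by 1.71 times or more in the lower repeat. The call used the largely shared fragments of both repeats, so this follows mostly from the call and is no agreement of replicates.

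The enrichment was a narrow peak over the start site. The mean depth of the 195 promoters within 500 bp of the TSS was 14.0 in repeat 1 and 14.1 in repeat 2, against 3.0 in the input. At 1.5 to 2 kb it had fallen to 2.13 and 2.14 against 1.30, and beyond 4 kb it was 1.30 and 1.32 against 1.29. The mean of the repeats stayed above the midpoint between its peak and the level beyond 4 kb from 500 bases upstream to 500 bases downstream. The highest 50 bp of each promoter lay within 500 bp of the TSS at 152 of 195 (77.9%), with a median position 25 bases downstream. At 11 it lay over 1000 bases away. These promoters were chosen on the same fragments, so the height of the profile is a description.

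**Figure D1:**
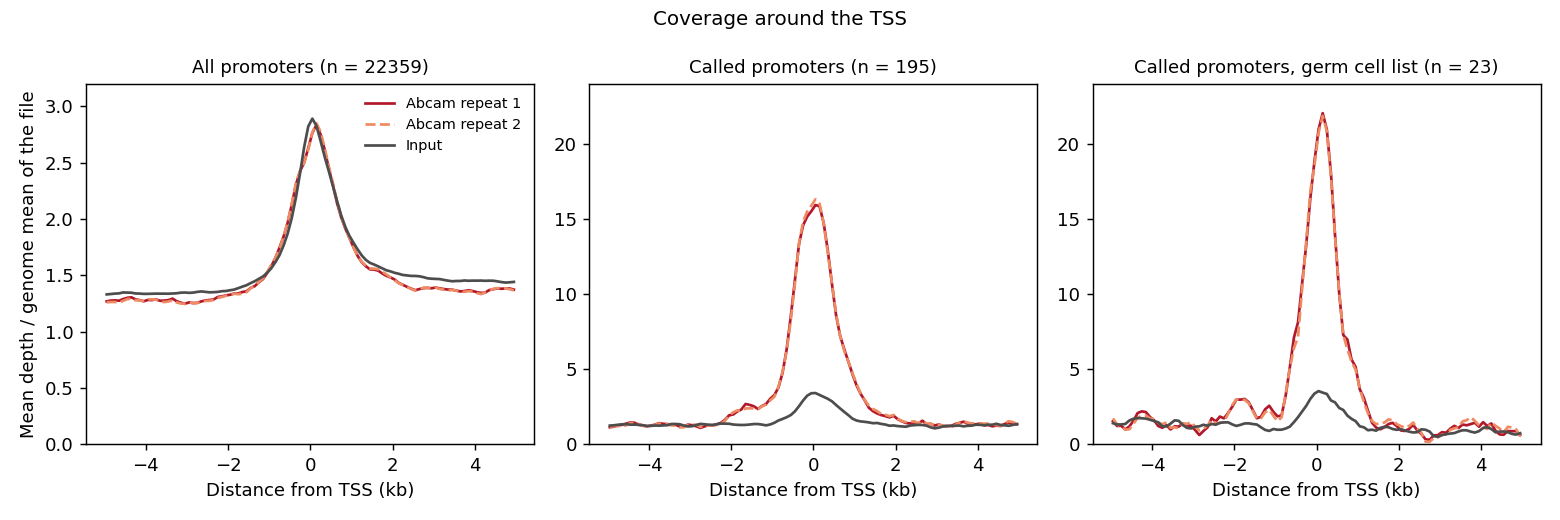
Mean coverage depth in 100 bp bins around the TSS, relative to the genome mean of each file, for all promoters, the 195 well-measured called promoters and the 23 of them on the germ cell list (the y axis of the first panel is expanded). Lines stand for Abcam repeats 1 and 2 and the input. Over all promoters the 3 lines nearly coincide, while the called promoters reach 14.0 and 14.1 within 500 bp of the TSS against 3.0 in the input.

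Genes of the germ line were the largest listed group among the called promoters. From a list of 75 genes of the germ line, meiosis and the piRNA pathway, 72 had a promoter, and 24 of these were called higher (33.3%, against 1.07% of all promoters). None was called lower. The list's median ratio was 1.596, against 0.941 over all promoters. Of the 24, 23 were well measured, which is 11.8% of the 195, and genes of this list make up 0.383% of the 16706 promoters within the same limits. The list and the call are not independent of earlier work on these files, and these shares are a description. The 24 promoters had depths of 3.47 to 11.3 in repeat 1 (median 6.40), 2.92 to 10.7 in repeat 2 (median 6.45) and 0.866 to 3.44 in the input (median 1.67). At every one of the 24, both repeats were at least 2.39 times as high as the input. This too follows mostly from the call, which was made on the same fragments.

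The upstream sequences of 5 called germ cell promoters are shown first, because they differ in the letters that the DNA-binding partners of Pcgf6 read. Each is the 150 bases before the main TSS, 5′ to 3′ on the strand of the gene, read from the NCBIM37 genome, with no annotated exon in the stretch. Capitals mark the E-box CACGTG and the E2F-type letters GCGGGAA (or its reverse complement), searched on both strands; the motifs do not overlap. The Ddx4 stretch is chr13:113442519-113442668 on the minus strand, that of Tex12 is chr9:50369374-50369523 (minus), that of Taf7l chrX:131011030-131011179 (minus), that of Sycp1 chr3:102740024-102740173 (minus) and that of Tdrkh chr3:94217068-94217217 (plus).
Ddx4: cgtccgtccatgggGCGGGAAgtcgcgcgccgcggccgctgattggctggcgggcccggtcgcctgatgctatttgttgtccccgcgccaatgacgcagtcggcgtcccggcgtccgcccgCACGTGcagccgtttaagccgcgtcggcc
Tex12: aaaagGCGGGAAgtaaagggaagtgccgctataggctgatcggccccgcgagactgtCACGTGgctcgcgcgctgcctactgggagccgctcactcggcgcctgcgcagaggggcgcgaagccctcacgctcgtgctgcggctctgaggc
Taf7l: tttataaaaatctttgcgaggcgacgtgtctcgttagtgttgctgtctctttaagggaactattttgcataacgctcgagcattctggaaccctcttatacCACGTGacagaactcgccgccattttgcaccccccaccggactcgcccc
Sycp1: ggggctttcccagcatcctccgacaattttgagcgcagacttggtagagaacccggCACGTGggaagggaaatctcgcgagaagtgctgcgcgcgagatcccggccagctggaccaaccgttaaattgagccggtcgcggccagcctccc
Tdrkh: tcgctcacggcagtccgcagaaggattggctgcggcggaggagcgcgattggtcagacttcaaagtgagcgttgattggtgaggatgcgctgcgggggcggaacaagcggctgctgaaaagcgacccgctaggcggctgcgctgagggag
In Ddx4 the E-box began 29 bases upstream of the TSS and the E2F-type letters 136 bases upstream. In Tex12 they began 93 and 145 bases upstream. Taf7l and Sycp1 held the E-box alone, 49 and 94 bases upstream, and Tdrkh held neither. The highest 50 bp of Abcam depth lay at -125 from the TSS in Ddx4, 125 in Tex12 and 275 in Sycp1. In Tdrkh it lay at -575 and in Taf7l at 1175, where negative values are upstream. Apart from that of Ddx4, these positions are outside the printed stretches. Of all 22359 promoters, 4.54% held CACGTG in these 150 bases and 3.25% held GCGGGAA, against 16.4% and 11.8% of the 195 well-measured called promoters. The 5 stretches are not typical of the list. Of its 23 well-measured called promoters, most held no CACGTG in these 150 bases. Beyond those shown, only Hormad1, Rnf17, Slc25a31 and Tdrd1 did. The called promoters of E2f6, Mga, Hdac2 and Tfdp1, described below, held neither motif there. A match of letters is not a measured binding site.

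The 3 highest ratios of the germ cell list were at genes of the piRNA pathway, which silences transposons in germ cells, and at Tudor-domain genes. Of 18 such genes, counted with the Tudor-domain genes of germ granules, 8 were called, and the median of the 18 was 1.77. Roles were assigned after the ratios were seen, so the counts and medians by role, here and below, are a description. Of all promoters, 1.07% were called. Ddx4 (Vasa, the RNA helicase of germ granules) had a depth of 9.26 in repeat 1, 9.43 in repeat 2 and 0.897 in the input. With 47 Abcam and 32 input fragments, its ratio was 10.4 (95% interval, 6.48 to 16.8). Its input was low for a promoter, since the median promoter had an input depth of 1.99 and 69 input fragments. Tdrkh, a mitochondrial Tudor protein that takes part in piRNA trimming, had depths of 11.3, 10.5 and 1.43, with the highest repeat 1 depth of the 24, and a ratio of 7.20 (4.78 to 10.9). Stk31, a Tudor-domain kinase of the testis, had 10.4, 9.77 and 1.51, a ratio of 6.64 (4.38 to 10.05).

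The other 5 called piRNA genes lay at ratios of 2.48 to 3.64. These were Mov10l1, a helicase for piRNA precursors (3.64), Piwil2, a PIWI protein (3.46), Rnf17 (3.43), Mael (3.28) and Tdrd1 (2.48). The calls at Rnf17 and Tdrd1 were lost without Abcam repeat 1, at ratios of 2.91 and 2.43. The 10 genes of the group that were not called went down to 0.403 at Tdrd7. Piwil1 and Piwil4, the other PIWI genes of the list, had ratios of 1.21 (0.597 to 2.25) and 1.24 (0.564 to 2.45), so within the PIWI family only Piwil2 was past the threshold. The difference between these promoters was not tested.

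Of 13 genes for the synaptonemal complex, the chromosome axis and meiotic cohesin, 6 were called, and the median of the group was 2.52. Tex12, a protein of the central element, had depths of 6.51 and 6.32 in the repeats and 1.22 in the input, a ratio of 4.99 (2.99 to 8.23). Sycp1, the transverse filament protein, had 7.18, 6.96 and 1.69, a ratio of 3.88 (2.46 to 6.03). Hormad1, a protein of the unsynapsed axis, had 5.59, 5.86 and 1.58, a ratio of 3.78 (2.34 to 5.99). Of the meiotic cohesin genes, Rad21l, Smc1b and Stag3 were called, at 3.64, 3.02 and 2.68. The 16 Abcam fragments of Rad21l were highest 1925 bases upstream of its TSS, at the edge of the window, and its call was lost within ±1 kb and after scaling for GC content. Rec8, a further meiotic cohesin gene, was not called and had 9 Abcam fragments against 97 in the input, a ratio of 0.655 (0.291 to 1.30). Sycp2 just missed the threshold at 2.52 (1.43 to 4.27, adjusted p = 0.0663, exact binomial test).

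Among 12 genes of meiotic recombination, 4 were called and the median was 1.85. Spata22, which works with single-stranded DNA in recombination, had a ratio of 3.48 (2.25 to 5.29). Zcwpw1, a reader of histone methylation at meiotic hotspots, had the highest input depth of the called germ cell promoters, 3.44, against 10.6 and 10.7 in the repeats, and a ratio of 3.32 (2.36 to 4.61). Hsf2bp, a partner of Brca2 in meiosis, stood at 3.28 and Msh4, a MutS protein of crossing over, at 3.01. The nuclease gene Spo11 and the recombinase gene Dmc1, which start and carry out strand exchange, had 2.02 (1.03 to 3.71) and 2.10 (1.19 to 3.54) and were not called.

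Of 14 transcription and RNA regulators of germ cells, 5 were called, and the median of the group was 1.02. Taf7l, a testis form of a TFIID subunit, is X-linked and had the lowest input depth of the 24, 0.866, against 4.63 and 4.94 in the repeats. Its ratio was 5.11 (2.77 to 9.28). Boll and Dazl, RNA-binding proteins of the DAZ family, stood at 4.50 (2.90 to 6.92) and 2.67 (1.62 to 4.29), and the call at Dazl was lost without Abcam repeat 1 (2.50). The transcription factors Sohlh2 and Dmrtb1 had ratios of 3.29 and 2.96. Sohlh1, the partner of Sohlh2, had 0.983 (0.471 to 1.86) although its TSS region held 3 E-boxes within 250 bp. Stra8, which licenses entry into meiosis, had 0.989 (0.535 to 1.71), and Nanos2, a regulator of spermatogonia, had 0.353 (0.0939 to 0.939).

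Of the 15 remaining genes, mostly those of late spermatids and oocytes, 1 was called. This was Slc25a31, an ADP/ATP carrier of male germ cells, at 2.98 (1.88 to 4.63). The protamine gene Prm1 had a ratio of 0.765 (0.338 to 1.52), the transition protein gene Tnp1 1.18 (0.537 to 2.32) and the oocyte growth factor gene Gdf9 1.39 (0.743 to 2.44). By CpG content, 1 of the 16 CpG-poor promoters on the whole germ cell list was called, against 12 of 21 CpG-rich and 11 of 35 intermediate ones. Over all promoters these counts were 13 of 8633, 162 of 7905 and 64 of 5821. The CpG-poor one was Rad21l, whose call was lost within ±1 kb and after scaling for GC content.

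**Figure D2:**
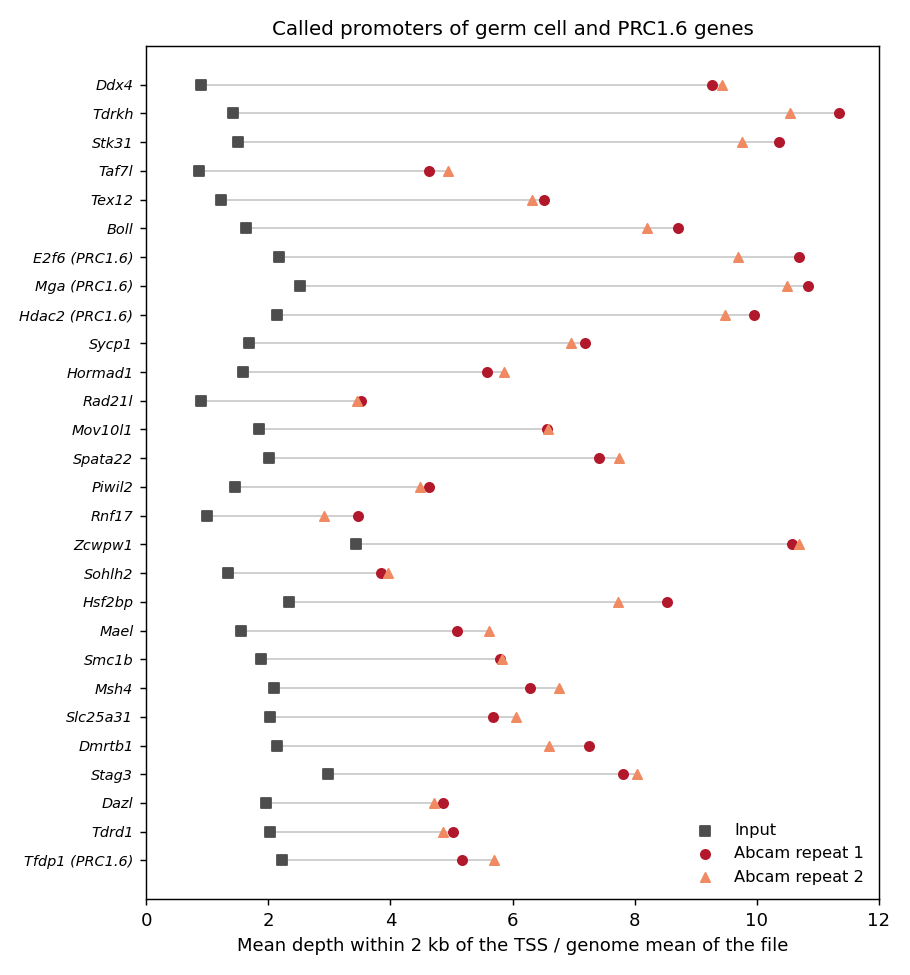
Mean depth within 2 kb of the TSS, relative to the genome mean of each file, at the 24 called germ cell promoters and the 4 called PRC1.6 promoters, ordered by ratio. Squares are the input, circles Abcam repeat 1 and triangles Abcam repeat 2. Both repeats lie to the right of the input at every promoter, and the input stays at 3.44 or below while Tdrkh reaches 11.3 in repeat 1. The promoters were called on the same, largely shared fragments, so the repeats are no independent check.

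Several genes of PRC1.6 itself had Abcam signal at their own promoters. Of 17 genes for subunits and partners, 4 were called (23.5%, against 1.07% of all promoters). All 4 were CpG-rich, as were 16 of the 17, and of all CpG-rich promoters 162 of 7905 were called. E2f6 (chromosome 12, TSS at 16817771) had depths of 10.7 and 9.69 in the repeats and 2.17 in the input, a ratio of 4.48 (3.04 to 6.55). Mga (chromosome 2, TSS at 119722964) had 10.8, 10.5 and 2.52, a ratio of 4.32 (2.997 to 6.17). Hdac2, a histone deacetylase, had 9.96, 9.47 and 2.15, a ratio of 4.05 (2.71 to 5.96). Tfdp1 stood lower, at 2.35 (1.45 to 3.71), and its call was lost without Abcam repeat 2 (2.28).

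The other 13 genes were not called, and the list's median of 1.05 was near that of all promoters. Pcgf6 itself had 2.08 and 2.02 in the repeats and 2.26 in the input, a ratio of 0.916 (0.423 to 1.78). Max, the partner of Mga, had 1.39 (0.724 to 2.49), L3mbtl2 1.48 (0.765 to 2.65) and Rnf2 0.565 (0.201 to 1.29). Hdac1, the paralogue of Hdac2, had 3 Abcam fragments against 73 in the input, the lowest ratio of the list at 0.290 (0.0585 to 0.882). The intervals of Hdac1 and Hdac2 do not overlap, which covers counting error only. The pair was set side by side after the values were seen, and its difference was not tested.

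The 4 remaining lists held no called promoter without scaling for GC content. With that scaling, Ccne2 of the DNA replication list (2.31) and Neurog2 of the developmental list (2.68) were called. Without it, 1.07% of all promoters were called, a share at which lists of 24 to 54 promoters could hold none. For 24 pluripotency genes the median ratio was 0.690, below that of all promoters, and 6 of 24 were above 1. The list's median input depth was 2.82, against 1.99 over all promoters. Among all promoters the median ratio was 0.932 at 50 to 99 input fragments and 0.812 at 100 to 199. The part of input depth in the list's median was not tested. The 3 highest pluripotency genes were Nr0b1 at 2.09 (0.821 to 4.73), Lin28b at 1.99 (0.919 to 3.96) and Tbx3 at 1.32 (0.794 to 2.09). Nr0b1 is X-linked, and the total of chromosome X had a ratio of 1.22, against 0.935 to 1.08 over the 19 autosomes. Summed over the pluripotency list, the ratio was 0.800 (0.697 to 0.915). For 54 DNA replication genes the median was 0.893, with Ccne2 (1.76) and Mcm4 (1.38) among the highest. For 41 nucleolar and nucleotide synthesis genes it was 0.941, with Dkc1 (1.53, also X-linked), Ctps (1.51) and Npm1 (1.49) highest. For 54 developmental transcription factors, the classical targets of Polycomb in ESCs, it was 1.05, with 29 of 54 above 1. Their 3 highest were Neurog2 at 2.13 (1.26 to 3.47, adjusted p = 0.170, exact binomial test), Isl1 at 1.91 (1.03 to 3.37) and Six2 at 1.69 (0.788 to 3.31).

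**Figure D3:**
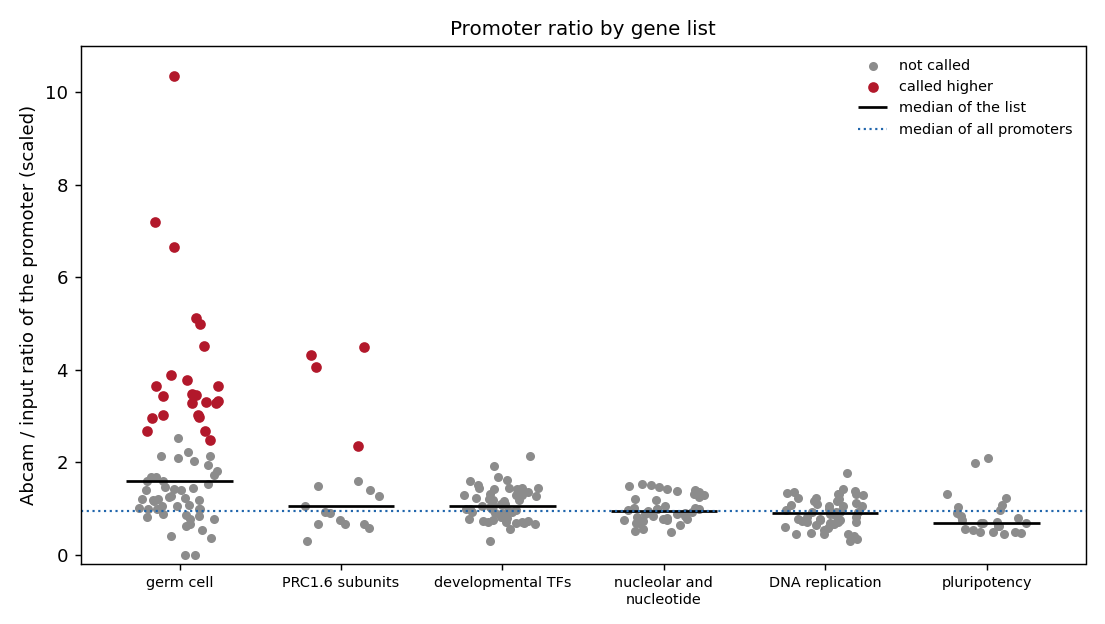
Scaled Abcam over input ratio of every promoter on the 6 gene lists. Red points were called higher, grey points were not, black bars are list medians and the dotted line is the median of all promoters (0.941). Called promoters stand on the germ cell list (24 of 72) and the PRC1.6 list (4 of 17). Of all promoters 1.07% were called, a share at which the other lists could hold none.

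Outside these lists, the 15 called promoters with the highest ratio included few genes of a common role. Apart from Ddx4, Tdrkh and Stk31, those with at least 20 input fragments included Neto2, an auxiliary subunit of kainate receptors (6.14, 4.06 to 9.25), Ptpdc1, a phosphatase (5.998, 4.05 to 8.86), Gpr176, an orphan receptor (5.75, 3.77 to 8.72), Gm10190 (5.68, 3.48 to 9.21) and BC016423 (5.47, 3.31 to 8.96). Neto2 had depths of 9.72 and 10.5 in the repeats against 1.55 in the input, and Ptpdc1 had 10.2 and 10.8 against 1.74. Another 5 rested on 4 to 9 input fragments, with wide intervals. They were 2610042L04Rik and Gm10754 (both 10.6, 2.51 to 51.0), Sult3a1 (9.88, 2.70 to 39.5), Sh3bgrl (7.84, 2.86 to 21.8) and Gm6020 (6.27, 2.11 to 18.3). Apart from Sh3bgrl, each of these 5 lost its call without Abcam repeat 1, where the ratio of 2610042L04Rik was 3.92. Sult3a1 and Gm6020 also lost it without Abcam repeat 2, at 6.48 and 6.30, and Gm10754, Sult3a1 and Gm6020 after scaling for GC content.

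The called promoters were rich in CpG. Promoters were classed by 500 bp windows from 1300 bases before to 200 after the TSS as CpG-rich (a window with an observed over expected CpG ratio of at least 0.75 and at least 55% GC), CpG-poor (no window at 0.48 or more) or intermediate. Of the well-measured promoters, 145 of 6462 CpG-rich ones were called (2.24%), 45 of 4722 intermediate ones (0.953%) and 5 of 5522 CpG-poor ones (0.0905%). Thus 74.4% of the 195 were CpG-rich, against 38.7% of all promoters within the same limits. Without scaling for GC content, CpG-rich promoters as a class were little enriched. Their median ratio was 0.985, against 0.899 at CpG-poor ones, and their summed ratio was 1.05 (1.04 to 1.06). Scaled for GC content, the medians were 1.201 at CpG-rich, 1.107 at intermediate and 0.987 at CpG-poor promoters, against 1.104 over all well-measured promoters. With that scaling, 258 CpG-rich, 90 intermediate and 21 CpG-poor well-measured promoters were called.

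The share of promoters called was also counted by E-box and E2F-type letters within each CpG class, with no test of the differences. Within 250 bp of the TSS, 11.1% of the 16706 promoters held CACGTG and 10.8% held GCGGGAA, against 28.7% and 25.1% of the 195 called ones and 60.9% and 34.8% of the 23 germ cell ones. Of CpG-rich promoters, 76 of 4571 with neither motif were called (1.66%, exact interval 1.31 to 2.08%). With GCGGGAA alone it was 28 of 989 (2.83%, 1.89 to 4.07%), with CACGTG alone 30 of 726 (4.13%, 2.81 to 5.85%) and with both 11 of 176 (6.25%, 3.16 to 10.9%). With 2 or more E-boxes, 11 of 115 were called (9.57%, 4.87 to 16.5%). The interval for GCGGGAA alone overlaps that for neither motif, and those with CACGTG do not. Most E-box promoters were not called, and the median ratio of the CpG-rich ones with CACGTG alone was 1.02. In the intermediate class, 0.643% were called with neither motif, 1.43% with GCGGGAA alone, 2.20% with CACGTG alone, 5.88% with both (4 of 68) and 3.03% with 2 or more E-boxes (2 of 66). No CpG-poor promoter with either motif was called, of 372 with CACGTG alone, 131 with GCGGGAA alone and 12 with both. With neither motif, 5 of 5007 CpG-poor promoters were called (0.0999%), a share at which groups of those sizes could hold none. The T-box letters AGGTGTGA, of the kind that T-box domains such as that of Mga read, were found in 1.54% of the 16706 promoters and in 2 of the 195.

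**Figure D4:**
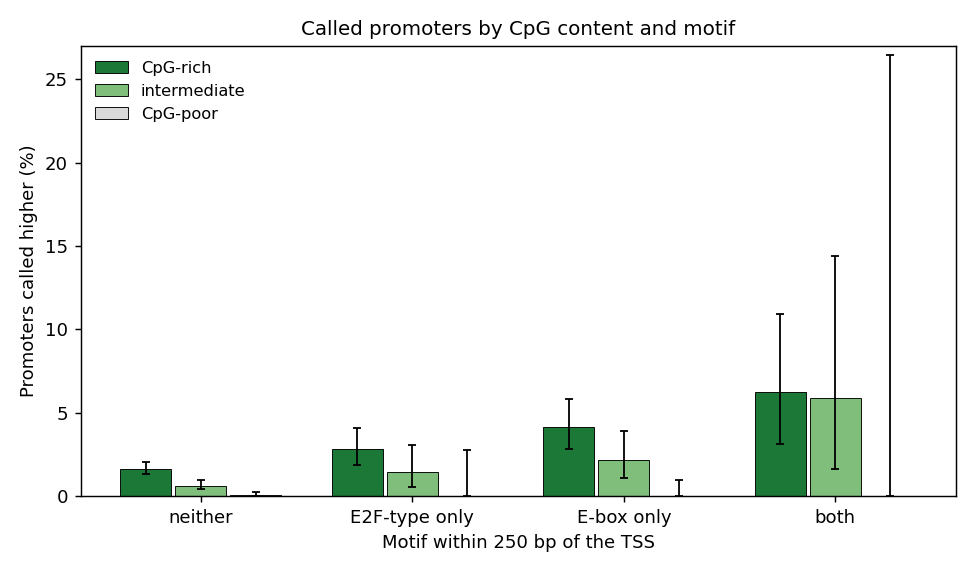
Share of well-measured promoters called higher (%), by CpG class and by the motif within 250 bp of the TSS (E-box CACGTG, E2F-type GCGGGAA). Error bars are exact 95% binomial intervals and cover counting error only. Among CpG-rich promoters the share is 1.66% with neither motif and 6.25% with both, and the CpG-poor group with both holds 12 promoters.

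The Abcam to input ratio also moved with base composition, apart from any promoter. In 1 kb windows outside promoters it was 1.78 at 30 to 34% GC, 1.05 at 40 to 44% and 0.763 at 55 to 59%. The input gave 2.13 fragments per kb at 30 to 34% GC and 21.7 at 55 to 59%, and the Abcam library 0.538 and 2.35. The input was thus steeper in GC than the ChIP library. At promoters of 50 to 55% GC, windows of the same GC content outside promoters gave a median ratio of 0.768, while the median ratio of the promoters was 0.898. After each promoter was divided by the ratio of windows of its own GC content, the median over all promoters rose from 0.941 to 1.09, and 446 promoters were called in place of 239, of which 226 were shared. The germ cell count was then 27, with 23 shared, and the median of the developmental transcription factors rose to 1.34. The part of GC content in the ratios of single genes was not tested.

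**Figure D5:**
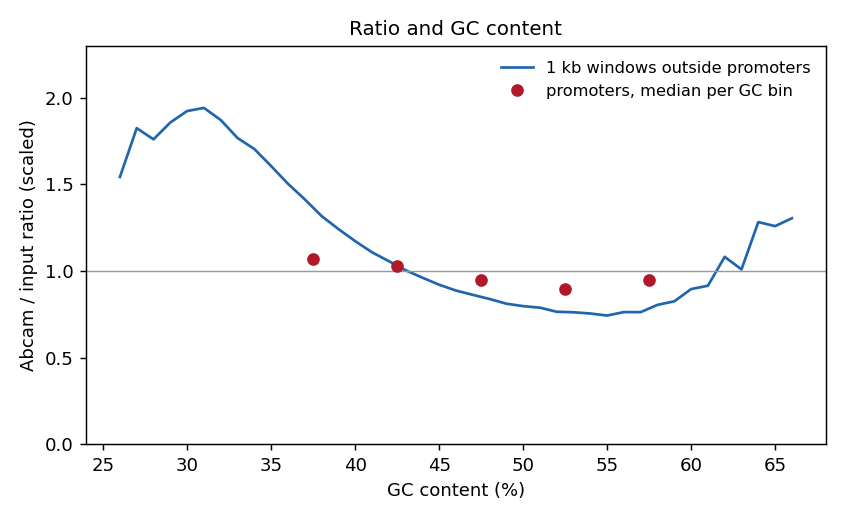
Scaled Abcam over input ratio against GC content. The line shows 1 kb windows outside promoters, and the points show the median of well-measured promoters in bins of GC content (the first bin is all under 40%). The ratio of windows falls from 1.78 at 30 to 34% GC to 0.763 at 55 to 59%, and the 3 points from 45 to 60% GC lie above the line.

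In gene bodies (from 2 kb after the TSS to the gene end, without bases near another TSS), little was enriched. Of 15281 gene bodies, 48 were called higher (0.314%) and 89 lower (0.582%). The 5 highest were 3110007F17Rik (10.6, 3.36 to 36.1), Klra7, a natural killer cell receptor (8.82, 3.13 to 25.7), Gm3264 (7.76, 2.99 to 20.4), Sirpb1c (5.65, 1.94 to 15.9) and Skint6 (3.71, 2.60 to 5.24). All 5 had an input depth of 0.0775 or less, and 36 of the 48 had one under 0.5, against a median of 1.49 over all gene bodies. The bodies called higher had a median GC content of 37.8% and those called lower 51.2%. Scaled for GC content, 9 were called higher and 1 lower, and scaled by the median of 10 kb windows, 87 and 33, so neither the number nor the balance of these calls was stable.

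Beyond called promoters, the gene bodies had ratios near 1. For 156 of the 195 genes with a measured body, the median body ratio was 1.02, against 0.941 for 12302 genes with other well-measured promoters, and none of the 156 bodies was called in either direction by the exact binomial test. Their summed ratios were 1.02 (0.997 to 1.03) and 0.966 (0.965 to 0.968), intervals that do not overlap. Scaled for GC content the medians were 0.976 and 0.969. The body of Ddx4 held 58 Abcam fragments against 437 in the input, a ratio of 0.937 (0.700 to 1.23), where its promoter had 10.4. Over the 23 of the 24 called germ cell genes with a measured body, the median body ratio was 1.09 (range 0.710 to 1.76). The whole interval lay above 1 at 3 of them, Stk31 (1.54, 1.18 to 1.99), Boll (1.26, 1.01 to 1.56) and Rnf17 (1.24, 1.03 to 1.48).

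Of 211959 distal 5 kb bins with at least 10 input fragments, 75 were called higher (0.0354%) and none lower (0%, against 5932 at an unadjusted p under 0.05). Many of the 75 lay on chromosome Y, where the chromosome total had a ratio of 2.29, itself past the fold of 2. The total of X had 1.22. Of the 75, 39 had an input depth of 3 times the genome mean or more, up to 133 times. The other 36 had ratios of 2.55 to 9.17 and lay a median of 109 kb from the nearest protein-coding TSS, with 10 within 50 kb. The highest was a bin of chromosome X from 72910001 to 72915000, with 39 Abcam fragments against 30 in the input and a ratio of 9.17 (5.55 to 15.3), 86.4 kb from Rab39b. The repeats differed there, with depths of 6.07 and 3.59 against 0.762 in the input. Another bin 10 kb away, from 72900001 to 72905000, had 7.53 (3.49 to 16.3). The next were on chromosome 11 from 15890001 to 15895000 and on chromosome Y from 2765001 to 2770000 (both 8.47, 3.35 to 21.9), and on chromosome 6 from 74120001 to 74125000 (7.06, 3.21 to 15.5), with 10 to 15 input fragments each.

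A few distal bins with more input, named here after their values were seen, stood out by depth. A bin 23.0 kb from the TSS of Mga, on chromosome 2 from 119695001 to 119700000, had depths of 9.36 and 9.62 in the repeats and 1.71 in the input, and 56 Abcam fragments against 76 gave a ratio of 5.20 (3.61 to 7.44). A bin on chromosome 11 from 69150001 to 69155000, 10.2 kb from Kcnab3, had 9.89 and 9.97 against 2.06, a ratio of 4.89 (3.47 to 6.86). Scaled for GC content, the bin near Mga had 5.68 and that near Kcnab3 6.30, above the 5.69 of the highest X bin. With bins of high input left out before the adjustment, 25 distal bins were called in place of 75.

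The 36 called promoters with an input depth of 3 times the genome mean or more ranged from 3.03 to 57.7 in input depth, and 16 were above 6. Their 5 highest ratios belonged to Gm10800 and Gm10801 on chromosome 2 and to Gm11168, Gm11167 and Gm10717 on chromosome 9, at 5.54 to 6.57. As a group these 5 had 120 to 324 Abcam fragments, and repeat 2 was lower than repeat 1 at each. Sequence that is present in more copies than the genome build holds would raise both libraries, and whether it did so here was not tested. Chromosome totals differed too: the ratio ran from 0.935 to 1.08 over the 19 autosomes and was 1.22 on X and 2.29 on Y, and 3 of 541 well-measured promoters on X were called.

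The Santa Cruz libraries share the input with Abcam, so their ratios are given only beside those above. They were 8.97 at Ddx4, 6.26 at Tdrkh, 5.46 at Stk31, 5.70 at Taf7l, 4.24 at Tex12 and 4.06 at Sycp1. At E2f6, Mga and Hdac2 they were 3.53, 3.38 and 4.52. Over the 24 called germ cell promoters they ranged from 1.55 at Hsf2bp to 8.97, with a median of 3.23, where the Abcam median was 3.44. Over the 195 well-measured called promoters the Santa Cruz median was 2.36 (range 0.405 to 8.97), and over all 16706 it was 0.900.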

How the data were processed

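Chromatin of CCE ESCs was immunoprecipitated with an Abcam or a Santa Cruz anti-Pcgf6 antibody, and 5 libraries (2, 2 and 1 input) were analysed. The authors deposited a coverage signal for each library: per position, how many reads, each extended to 300 bp, cover it, not scaled to library size and not divided by the input. The submitters' processing notes name mm9 and Bowtie 0.1.2.7. The mapping filter and the treatment of duplicate reads are not given in the sources used here. Both bear on the depth at repeats.

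Here, fragment starts were recovered from the steps in the depth, 1 fragment was kept per position (same-position fragments were 0.363% and 0.367% in the Abcam repeats and 2.33% in the input), and each was counted where its midpoint fell. The repeats were joined into 3157536 fragments, set against 22281796 input positions. Promoters (TSS ±2 kb, around the start that most coding transcripts use), gene bodies (at least 4 kb) and distal 5 kb bins followed the GENCODE annotation of NCBIM37. A one-sided exact binomial test at the share given by the library totals was adjusted after Benjamini and Hochberg over all features of a kind. The steps were tested on simulated data. The study's peak caller was not used.

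The members and gene lists were chosen with earlier results of these data known, and the roles within the germ cell list were assigned after the ratios were seen. Named were the 15 called promoters with the highest ratio and an input depth under 3 times the genome mean, every called germ cell and PRC1.6 promoter, the 3 highest of every other list, and the 5 highest called promoters with more input, gene bodies and distal bins. Some items that the rule names are not reported here. Genes beyond this rule were named after their values were seen. Meioc, Meiob, Tdrd5, Tfcp2l1 and Sox1 were not matched to a promoter. Alternatives changed the window, duplicates, scaling, GC content, fold, input limits and repeats. Tests came from scipy 1.17.1 (under Python 3.11.15), tables from pandas 2.3.3 with numpy 2.4.6, depth steps from numba 0.67.0 and plots from matplotlib 3.10.9.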

Additional observations from a re-analysis of the deposited data

How the results depend on the processing

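The 239 promoters called higher became 446 after scaling for GC content, and 199 to 278 under the other alternatives. None was called lower under any. Without 1 Abcam repeat, 203 to 217 were called. Gene bodies called higher and lower moved from 48 and 89 to 87 and 33 with median scaling, 9 and 1 with GC scaling and 174 and 333 at a fold of 1.5. Without 1 repeat they were 35 to 37 and 57 to 82, with 57 lower without repeat 1. The 75 distal bins became 148 with 10 kb bins, 25 with high input left out and 48 with GC scaling. The germ cell count of 24 stayed between 22 and 27.

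With GC scaling the list medians were 1.99 (germ cell), 1.32 (PRC1.6), 0.859 (pluripotency), 1.04 (DNA replication), 1.12 (nucleolar) and 1.34 (developmental). Within ±1 kb they were 1.96 for germ cell, 1.34 for PRC1.6 and 0.806 for pluripotency genes. The promoter share over input was 1.01 within ±1 kb, 0.975 within ±3 kb and 1.01 with high input left out, and the profile value was 1.04 with a centre of ±1 kb and 1.02 with high input left out. The calls at Rnf17, Sohlh2 and Dazl were lost with deposited depth in place of fragments (3.25, 2.88 and 2.44), and that at Tdrd1 within ±3 kb (1.73). The cause was not tested.

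No paired analysis was possible because the repeats of each antibody hold largely the same fragments and the input is a single library. There is no independent repeat of either library, so the error between experiments is unknown. A promoter with the median input of 69 fragments needed 24 Abcam fragments, a ratio of 2.45, to reach the p of the weakest call, so smaller differences were not detectable at this depth.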

Other observations

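Of the 195 well-measured called promoters, 168 belonged to none of the 6 lists. The following were named after their values were seen. Several are genes of the testis or the germ line that the germ cell list did not hold. Sox30, a transcription factor of spermatids, had 45 Abcam fragments against 70 in the input, a ratio of 4.54 (3.05 to 6.69), and Hsf5, a heat shock factor of spermatocytes, had 39 against 61, a ratio of 4.51 (2.94 to 6.85). Dmrtc2, of the Dmrt family, had 50 against 84, a ratio of 4.20 (2.90 to 6.03). Rbm46, an RNA-binding protein of germ cells, had 3.04 (1.76 to 5.11), Mns1, a sperm flagellum protein, 2.79 (1.55 to 4.84), and Gpat2, an acyltransferase of the testis, 2.62 (1.70 to 3.94). Cpeb1, which controls translation of oocyte mRNAs, had depths of 10.5 and 9.71 in the repeats against 2.73 in the input, and a ratio of 3.49 (2.42 to 4.98).

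Another 4 called promoters belonged to DNA repair genes. Rad50, of the complex that senses double-strand breaks, had 31 Abcam fragments against 60 in the input, a ratio of 3.65 (2.28 to 5.72). Fancf, of the Fanconi anaemia core complex, had 2.98 (1.83 to 4.74), the repair ATPase gene Ercc6 had 2.77 (1.80 to 4.19) and the helicase gene Recql 2.69 (1.73 to 4.08). All 4 are CpG-rich, as were 74.4% of the 195 well-measured called promoters. The genes of testis and of DNA repair that were not called were not counted, and 1.17% of all 16706 well-measured promoters were called. Whether either group is called more often than other genes was not tested.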
